A study of Homo sapiens with 42 samples.

Results

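The JUN locus was described as the chromatin loops with at least 1 anchor between 58.2 and 59.4 Mb of chromosome 1 in K562, a human leukaemia cell line exposed to 25 nM PMA for up to 72 h. PMA is a phorbol ester that activates protein kinase C and drives these cells towards a megakaryocyte-like state. The rule used positions alone and took 22 of the 33914 loops of the table. Wild-type K562 cells were sampled at 0 h (untreated), 6 h and 72 h, with 4 replicates at each time, which the labels call biological without saying whether they came from separate cultures. The p-values below therefore measure the spread between these libraries, which may in part be technical. The assay was in situ Hi-C, in which DNA ends that lie close together in fixed nuclei are joined and read as pairs. It gives no RNA level, so neither the differentiated state nor the expression of JUN could be checked against marker genes.

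JUN encodes a basic leucine zipper protein that pairs with FOS and related proteins to form the transcription factor AP-1. AP-1 binds TPA response elements, which are named after this same phorbol ester, and JUN is known as an early response gene that its own product can activate through variant AP-1 sites near its start. A loop in Hi-C is a pair of separate positions that meet more often than their surroundings, commonly at cohesin and CTCF sites or between promoters and distal elements.

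Of the 22 loops, 4 had an end of JUN in an anchor. JUN lies at chr1:58780791-58784047 (GRCh38, minus strand, RefSeq), inside the anchor chr1:58780001-58790000. The divergent long non-coding gene JUN-DT starts in the same 10 kb (58785151, plus strand), so a contact of this anchor cannot be assigned to either gene. All 4 loops ran towards higher coordinates, which is upstream of JUN and along JUN-DT. Their far anchors began at 58850001 (70 kb away, over LOC107984961 and JUN-DT), 58890001 (110 kb, over the end of JUN-DT and LINC02777), 59000001 (220 kb, at the pseudogene PHB1P3) and 59290001 (510 kb, over the starts of FGGY and FGGY-DT). FGGY encodes a carbohydrate kinase. These loops are called loop675, loop676, loop677 and loop678, as in the deposited table.

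The FGGY anchor, chr1:59290001-59300000, joined more of the 22 loops than any other of the 28 distinct anchors, 6 against 4 for the JUN anchor. The other members lay below JUN, around DAB1 and OMA1 (5 loops), passed over JUN without touching it (7 loops), or lay between JUN and the far end of FGGY (6 loops). DAB1 encodes an adaptor of reelin signalling and OMA1 a mitochondrial protease. Loop lengths ran from 30 to 1600 kb, with a median of 460 kb against 440 kb over the whole table.

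**Figure D1:**
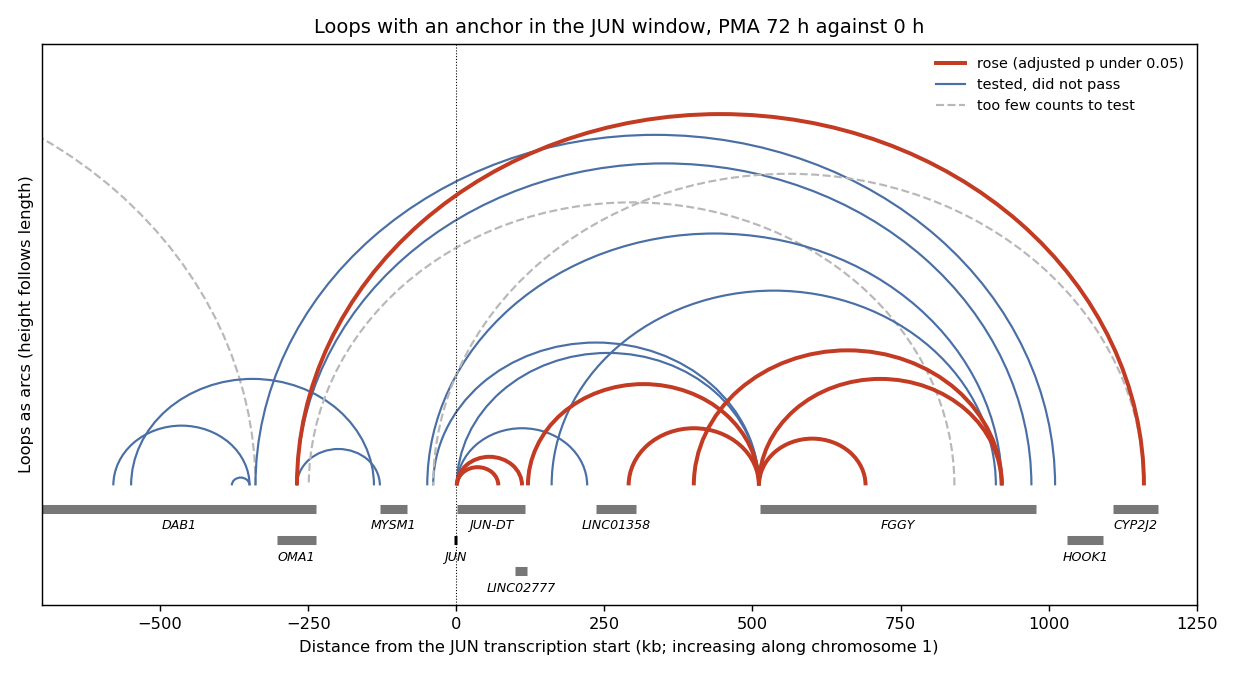
Map of the 22 loops, drawn as arcs between anchor centres against the distance from the JUN transcription start in kb, with gene bodies below. Red arcs rose between 0 h and 72 h (8 loops), blue arcs were tested and did not pass (11 loops) and dashed grey arcs had too few counts to test (3 loops); the arc of loop662 leaves the plot on the left. Of the red arcs, 7 lie between the JUN anchor and the distal part of FGGY, and the eighth spans the whole interval.

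RefSeq (GRCh38.p14) lists 12 promoters of 7 genes in 6 of the 28 anchors. The 250 bases before the start are shown for JUN and for JUN-DT, which share the anchor of the 4 JUN loops, and for FGGY, whose anchor joins 6 loops. Capitals mark exact matches, on either strand, to TGACTCA (the TPA response element), TGACATCA and TTACCTCA (the AP-1-like sites known from the JUN promoter), TGACGTCA (the cyclic AMP response element), CCAAT (a common promoter box bound by NF-Y), GGGCGG (the SP1 core) and TATTTTTA (an MEF2-like core).
JUN, chr1:58784048-58784297, minus strand: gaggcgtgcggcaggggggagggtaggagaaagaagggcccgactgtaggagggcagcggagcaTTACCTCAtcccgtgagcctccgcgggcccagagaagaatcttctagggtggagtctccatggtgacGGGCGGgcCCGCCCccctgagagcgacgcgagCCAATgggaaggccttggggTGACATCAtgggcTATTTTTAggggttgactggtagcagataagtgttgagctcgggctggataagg
JUN-DT, chr1:58784901-58785150, plus strand: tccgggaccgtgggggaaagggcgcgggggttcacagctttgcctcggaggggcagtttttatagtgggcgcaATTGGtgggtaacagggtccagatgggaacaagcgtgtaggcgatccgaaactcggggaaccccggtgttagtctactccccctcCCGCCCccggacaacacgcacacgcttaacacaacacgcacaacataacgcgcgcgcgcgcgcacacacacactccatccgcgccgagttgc
FGGY, chr1:59296563-59296812, plus strand, for the start at 59296813: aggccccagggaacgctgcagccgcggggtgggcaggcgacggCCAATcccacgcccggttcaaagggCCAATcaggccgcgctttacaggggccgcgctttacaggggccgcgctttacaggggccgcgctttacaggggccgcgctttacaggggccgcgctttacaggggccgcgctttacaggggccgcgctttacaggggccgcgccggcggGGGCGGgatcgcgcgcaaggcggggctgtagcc
Counted from the transcription start, the JUN sequence holds TTACCTCA at -186 to -179 and TGACATCA at -67 to -60. Of 35116 human promoter windows of 250 bases in the same RefSeq table, 0.644% hold the first and 2.37% the second. JUN also holds TATTTTTA at -54 to -47, which 2.09% of the windows hold, besides CCAAT (32.0%) and GGGCGG on each strand (42.6%). The JUN-DT and FGGY sequences hold CCAAT and GGGCGG on one strand or the other and no match to the other motifs. TGACTCA (4.2% of windows) and TGACGTCA (1.65%) are in none of these 3 sequences. Of the 13 listed promoters of 10 AP-1 genes, 1 holds TTACCTCA and 3 hold TGACATCA (JUN, ATF3 and BATF2). These matches describe the windows. An anchor is 10 kb wide, and the contact counts cannot place a contact within it.

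Contacts were counted between both anchors of a loop, and the 2 or 3 technical replicates of a replicate were summed into 1 library. The 12 libraries held 736929 to 1472197 contacts in loops. Values are given as normalised contacts, which are counts per 1000000 contacts in the tested loops after scaling between libraries. Replicates 3 and 4 differed by no more than counting noise at 0 h (chi-square per degree of freedom 1.01, p = 0.0574) and 72 h (1.00, p = 0.487) and by little more at 6 h (1.02, p = 0.0334), where every other pair of a time differed beyond it. Their mean was therefore counted as 1 sample in every mean ± SD (n = 3 at each time), while the fits kept all 12 libraries. Fits within replicates 3 and 4 alone take them as 2 libraries, so the p-values of those fits measure little beyond counting noise. Summing the pair at every time left 8 loops called at 72 h against 0 h. A count includes the local background of its position, and fewer looped cells cannot be told apart from a weaker loop in every cell.

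At 72 h, 8 of the 19 tested loops were higher than at 0 h and none was lower by edgeR's quasi-likelihood test (adjusted p under 0.05 over all 24132 tested loops). That is 42.1% of the loops, where 33.6% of all tested loops passed in either direction, 16.7% upwards and 16.9% downwards. The median log2 change of the 19 loops was 0.37, against 0.01 over all tested loops. This contrast takes no account of loop length. Tested loops within 20% of the length of each of the 19 had median changes from -0.35 (at loop666, 30 kb) to 0.48 (at loop670, 1430 kb). With a correction for loop length 8 loops passed, 7 upwards and 1 downwards. At 6 h no loop of the locus passed, 2 had an unadjusted p under 0.05, and the median log2 change was 0.10. Over all loops, 6.41% passed at 6 h, 2.34% upwards and 4.07% downwards. DESeq2 also called no loop of the locus at 6 h.

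Of the 4 loops anchored at JUN, loop675 and loop676 rose by 72 h and loop677 and loop678 did not pass the test. loop675, which joins JUN to the LOC107984961 anchor and had the highest mean count among the tested loops of the locus, had 50.0, 60.8, 57.7 and 69.4 normalised contacts in replicates 1 to 4 at 0 h. At 6 h it had 68.6, 58.9, 60.9 and 85.7, and at 72 h 90.2, 84.3, 90.5 and 86.6. All libraries at 72 h lay above all at 0 h, and the 6 h values overlapped both, with replicate 4 within the 72 h range. For this and for every other loop described so, the share of all tested loops whose times separate is not given. The means were 58.1 ± 7.16 (SD, n = 3), 66.9 ± 7.34 and 87.7 ± 3.04. The log2 change was 0.57 at 72 h against 0 h (SE 0.13, 1.48-fold, edgeR adjusted p = 0.000153) and 0.21 at 6 h (SE 0.14, edgeR adjusted p = 0.39). Within replicates 1 and 2 alone the 72 h change was 0.64 (adjusted p = 0.0031), and within replicates 3 and 4 alone it was 0.46 (adjusted p = 0.0512).

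loop676, from JUN to the anchor where JUN-DT ends, had 60.1, 43.7, 82.8 and 65.9 normalised contacts at 0 h. At 6 h it had 77.5, 52.3, 84.9 and 50.7, and at 72 h 84.0, 68.3, 90.5 and 85.7. The times overlapped, with replicate 3 at 0 h above replicate 2 at 72 h. From 59.4 ± 15.4 (SD, n = 3) at 0 h and 65.9 ± 12.7 at 6 h the mean rose to 80.1 ± 10.5 at 72 h, a log2 change of 0.40 against 0 h (SE 0.13, edgeR adjusted p = 0.0113). This call was lost without replicate 2 of 0 h (0.26, adjusted p = 0.143) and with DESeq2 (0.39, adjusted p = 0.0981). Within replicates 1 and 2 the change was 0.50 (adjusted p = 0.0289) and within replicates 3 and 4 it was 0.24 (adjusted p = 0.332).

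The longer contacts of JUN did not pass the test. loop677, which reaches 220 kb, had 50.0, 36.1, 41.4 and 40.9 normalised contacts at 0 h, 40.2, 53.3, 53.8 and 50.7 at 6 h, and 46.9, 42.2, 49.9 and 44.6 at 72 h. Its log2 change at 72 h against 0 h was 0.10, with a 95% interval of -0.20 to 0.39. loop678, which joins the JUN anchor to the FGGY anchor, had 38.4, 16.1, 31.4 and 22.7 at 0 h, 29.4, 34.6, 25.5 and 29.0 at 6 h, and 31.0, 24.1, 33.3 and 28.6 at 72 h. The values of these loops overlapped at all times, and the spread of loop678 at 0 h was wider than any difference between the means of its times. The log2 change of loop678 at 72 h was 0.06 (95% interval -0.30 to 0.42), and it was 0.32 without replicate 1 of 0 h and -0.13 without replicate 2 of 0 h. The lowest raw count of a JUN loop, 17 contacts for loop678 in replicate 2 of 0 h, has an exact 95% Poisson interval of 9.9 to 27.2, which covers counting error only. The difference in change between the short and the long JUN loops was not tested.

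**Figure D2:**
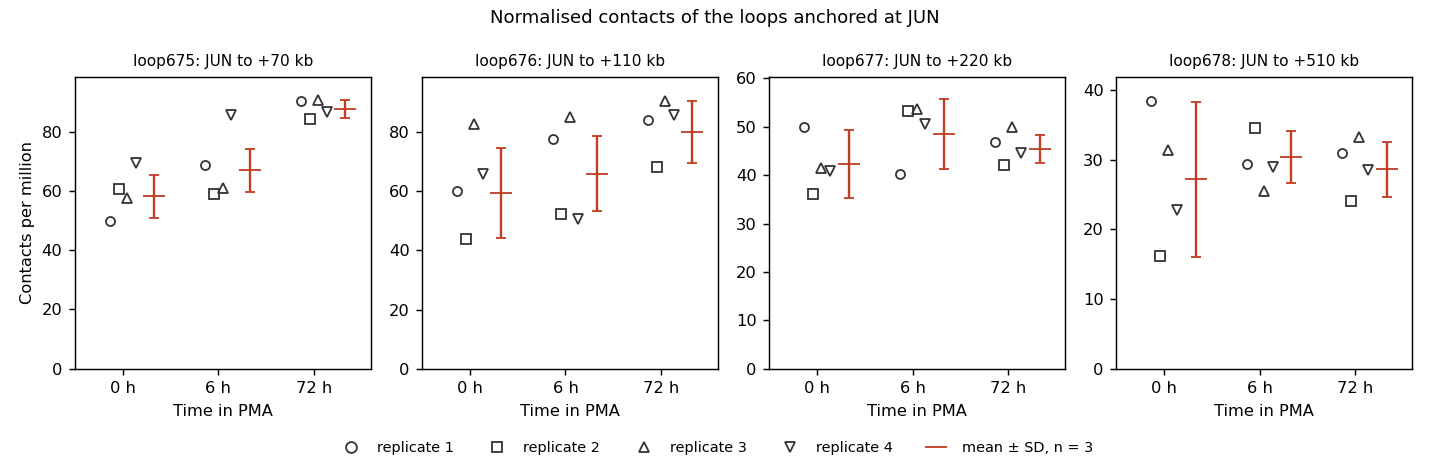
Normalised contacts (per 1000000) of the 4 loops anchored at JUN, by time in PMA. Open symbols are the 4 replicates of a time and red marks are the mean ± SD with replicates 3 and 4 averaged first (n = 3). For loop675 every library at 72 h (84.3 to 90.5) lies above every library at 0 h (50.0 to 69.4), and for the other loops the times overlap.

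Contacts of JUN fell off with distance, as Hi-C counts do in general. At 72 h every library of loop675 and loop676 lay above every library of loop677 (42.2 to 49.9), and these above every library of loop678 (24.1 to 33.3). loop675 and loop676 overlapped each other at all times, and at 0 h neighbours in this order overlapped. Set against loops of like length (within 20% of its own), loop675 stood low at 0 h, at percentile 24.1 of 1529 loops, while loop678 stood at percentile 76.3 of 4290. loop676 and loop677 lay nearer the middle, at percentiles 49.2 and 58.5. The sum of the 4 JUN loops was 187 ± 26.6 normalised contacts at 0 h (SD, n = 3), 212 ± 11.2 at 6 h and 242 ± 20.03 at 72 h. loop675 made up 31.6% ± 6.83 of the raw contacts in this sum at 0 h and 36.4% ± 1.95 at 72 h, with overlapping libraries, and loop678 made up 14.2% ± 4.63 and 11.8% ± 0.69.

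Of the 6 loops between JUN and the distal part of FGGY, 5 rose by 72 h, with a median log2 change of 0.59 over the 6. Of the 5 tested loops that pass over JUN, 1 rose, and of the 4 tested loops below JUN none passed. Over all tested loops 16.7% rose. The 5 that rose between JUN and the distal part of FGGY are not separate observations. Of these, loop679, loop681, loop683 and loop684 share the FGGY anchor, and loop682 shares its other anchor with loop684. This grouping by position was made after the values were seen and was not tested.

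FGGY-anchored loops made up 4 of those that rose. loop684, from the FGGY start to chr1:59700001-59710000 within the FGGY gene body, had 23.2, 19.0, 22.6 and 19.3 normalised contacts at 0 h. It had 28.4, 32.7, 28.3 and 26.5 at 6 h and 34.5, 35.1, 51.0 and 43.7 at 72 h. Each time lay wholly above the one before it, although the 6 h change did not pass the test (log2 0.43, SE 0.20, edgeR adjusted p = 0.185). The means were 21.0 ± 2.10 (SD, n = 3), 29.5 ± 2.81 and 39.0 ± 7.24, and the log2 change at 72 h against 0 h was 0.89 (SE 0.18, 1.85-fold, edgeR adjusted p = 2.61e-05). Within replicates 1 and 2 it was 0.65 (adjusted p = 0.0466) and within replicates 3 and 4 it was 1.09 (adjusted p = 0.00063). The latter p-value measures little beyond counting noise.

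loop681 joins LINC01358, a long non-coding gene, to the FGGY anchor. It had 36.9, 19.9, 30.1 and 31.8 normalised contacts at 0 h, 27.5, 20.6, 31.1 and 30.2 at 6 h, and 50.4, 49.2, 54.1 and 36.6 at 72 h. The 0 h and 6 h values overlapped, and all libraries at 72 h lay above all at 6 h. The log2 change was 0.62 at 72 h against 0 h (SE 0.16, edgeR adjusted p = 0.00152) and -0.16 at 6 h against 0 h (adjusted p = 0.695). Within replicates 1 and 2 the 72 h change was 0.71 (adjusted p = 0.00953) and within replicates 3 and 4 it was 0.50 (adjusted p = 0.128).

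loop679 joins the LINC02777 anchor, next to the end of JUN-DT, to the FGGY anchor. It had 12.3, 25.6, 23.8 and 21.6 normalised contacts at 0 h, 28.4, 23.4, 18.4 and 33.8 at 6 h, and 32.7, 31.1, 31.2 and 38.4 at 72 h. All libraries at 72 h were above all at 0 h, where replicate 1 was the lowest. The log2 change was 0.69 (SE 0.19, edgeR adjusted p = 0.00248) and was 0.45 without replicate 1 of 0 h, when the call was lost (adjusted p = 0.0889). It was 0.75 within replicates 1 and 2 (adjusted p = 0.027) and 0.58 within replicates 3 and 4 (adjusted p = 0.111).

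loop683, which lies within FGGY from its start to 59470001, had 28.2, 22.8, 22.6 and 40.9 normalised contacts at 0 h, 30.4, 33.6, 39.6 and 32.6 at 6 h, and 38.9, 40.2, 37.4 and 53.6 at 72 h. Replicate 4 was the highest at 0 h and at 72 h, and its 0 h value lay among the 72 h libraries. The log2 change at 72 h was 0.55 (SE 0.17, edgeR adjusted p = 0.00612). The call was lost without replicate 4 of 72 h (0.42, adjusted p = 0.0696), with DESeq2 (0.57, adjusted p = 0.052) and within either pair of replicates (0.56, adjusted p = 0.0654, within 1 and 2, and 0.49, adjusted p = 0.133, within 3 and 4). The remaining loops of this anchor did not pass, namely loop678 to JUN and loop673 to LOC124904191 (log2 -0.09, 95% interval -0.46 to 0.28). The 6 loops of the FGGY anchor together gave 153 ± 18.8 normalised contacts at 0 h (SD, n = 3), 175 ± 4.36 at 6 h and 215 ± 17.0 at 72 h.

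The anchor chr1:59700001-59710000 in FGGY was shared by loop684, loop682 and loop672. loop682, which starts at 59180001 between HSD52 and FGGY, had 18.8, 15.2, 35.1 and 22.7 normalised contacts at 0 h, 24.5, 27.1, 17.0 and 19.3 at 6 h, and 28.3, 39.2, 42.6 and 25.0 at 72 h. The times overlapped, and the log2 change at 72 h was 0.56 (SE 0.19, edgeR adjusted p = 0.0147). This call was lost in 8 of 19 alternatives, more than for any other of the 8 loops, among them without replicate 1 (adjusted p = 0.0932) or 2 (adjusted p = 0.101) of 0 h, without replicate 2 (adjusted p = 0.0648) or 3 (adjusted p = 0.09) of 72 h, with DESeq2 (adjusted p = 0.101), and with a correction for loop length (adjusted p = 0.0501). Its change was 0.87 within replicates 1 and 2 (adjusted p = 0.00872) and 0.20 within replicates 3 and 4 (adjusted p = 0.64). loop672, which joins the same anchor to chr1:58730001-58740000 on the far side of JUN, changed by -0.24 (95% interval -0.63 to 0.15). With the length correction its change was -0.54 (adjusted p = 0.0296), a fall that passed the threshold.

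The largest fold change among the tested loops of the locus was in the longest of them. loop670 runs 1430 kb from an anchor in DAB1 and OMA1 to one in CYP2J2, which encodes a cytochrome P450 that acts on arachidonic acid. Its raw counts were small, with 8, 3, 5 and 2 contacts at 0 h, 8, 4, 7 and 14 at 6 h, and 16, 13, 23 and 27 at 72 h. As normalised contacts these were 5.79, 2.85, 6.27 and 2.27, then 7.84, 3.74, 9.91 and 16.9, then 14.2, 13.1, 23.9 and 24.1. All libraries at 72 h lay above all at 0 h, and 6 h overlapped both. Every 0 h count was below the filter's minimum count of 10, and the loop entered the tested set through its 72 h counts. Its change is therefore partly selected. In the edgeR fit with no filter on low counts the log2 change at 72 h was 1.65 (adjusted p = 9.09e-07). The fitted log2 change was 1.70 at 72 h (SE 0.29, edgeR adjusted p = 6.8e-07) and 0.80 at 6 h (SE 0.33, edgeR adjusted p = 0.131). Over the summed libraries, 18 contacts at 0 h and 79 at 72 h gave a ratio of 4.39 at equal depth, with an exact 95% binomial interval of 2.61 to 7.79 that covers counting error only. Within replicates 1 and 2 the log2 change was 1.28 (adjusted p = 0.0176) and within replicates 3 and 4 it was 2.03 (adjusted p = 4.3e-05). The p-value within replicates 3 and 4 measures little beyond counting noise.

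**Figure D3:**
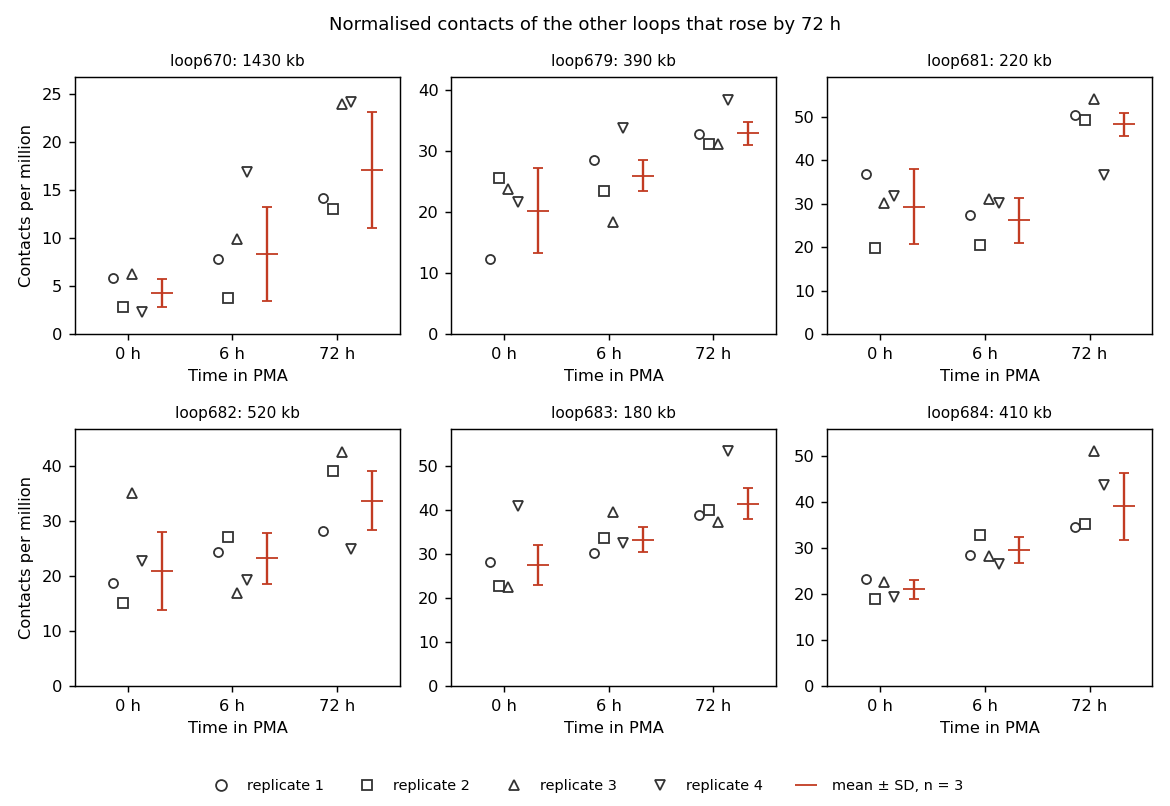
Normalised contacts (per 1000000) of the 6 other loops that rose between 0 h and 72 h, by time in PMA, with each replicate as an open symbol and the mean ± SD in red (replicates 3 and 4 averaged first, n = 3). In loop670, loop679 and loop684 every library at 72 h lies above every library at 0 h. In loop681, loop682 and loop683 these times overlap. The share of all tested loops that separate in this way is not given.

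Changes in this table went with loop length, so each was also set beside loops of like length. The median log2 change at 72 h of such loops was 0.48 at the length of loop670, -0.17 at that of loop675 and -0.35 at that of loop666, a 30 kb loop. The change of loop670 lay above that of 99.5% of 623 tested loops of like length, a set that it joined through its 72 h counts. The change of loop675 lay above that of 94% of 1529. For loop684 the share was 97.1% of 4649, for loop679 92.9%, for loop681 92.1%, for loop683 89.5%, for loop676 86.3% and for loop682 85.7%. loop677 (63.4%) and loop678 (48.5%) lay near the middle of their length. Of the other loops that did not pass, loop666 lay at 85.4%, beside loop682. The rest lay at 71.4% (loop664), 66.1% (loop667), 52.6% (loop668), 48.9% (loop669), 44% (loop680), 32.9% (loop673), 18.6% (loop665) and 11.8% (loop672). These shares describe position among loops and are no test.

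The 11 tested loops that did not pass at 72 h had log2 changes from -0.35 to 0.62. The highest was loop667 (0.62, edgeR adjusted p = 0.0963), a 1350 kb loop from DAB1 to LOC105378758 with 4.35 to 8.54 normalised contacts at 0 h and 7.96 to 14.1 at 72 h. Its raw counts at 0 h, 6, 9, 5 and 5, were all below the filter's minimum count of 10. As with loop670, it entered the tested set through later counts, and its change is partly selected. The lowest was loop665 (-0.35, adjusted p = 0.279), with 12.51 to 16.1 at 0 h and 9.82 to 12.48 at 72 h. Every library of loop665 at 72 h thus lay below every one at 0 h, although the change did not pass. The share of all tested loops whose times separate in this way is not given here. loop666 and loop668, were the strongest loops below JUN. loop666, inside DAB1, had means of 74.1 ± 7.51 at 0 h (SD, n = 3) and 71.9 ± 1.75 at 72 h (log2 -0.04, 95% interval -0.29 to 0.21). loop668, from OMA1 to MYSM1, which encodes a histone H2A deubiquitinase, had 71.5 ± 1.87 and 68.7 ± 4.45 (log2 -0.06, 95% interval -0.31 to 0.19). The others were loop664 (0.21), loop669 (0.37), loop680 (0.13), loop672, loop673, loop677 and loop678. loop662, loop671 and loop674 averaged 3.92, 5.83 and 7.75 raw contacts per library and were not tested.

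**Figure D4:**
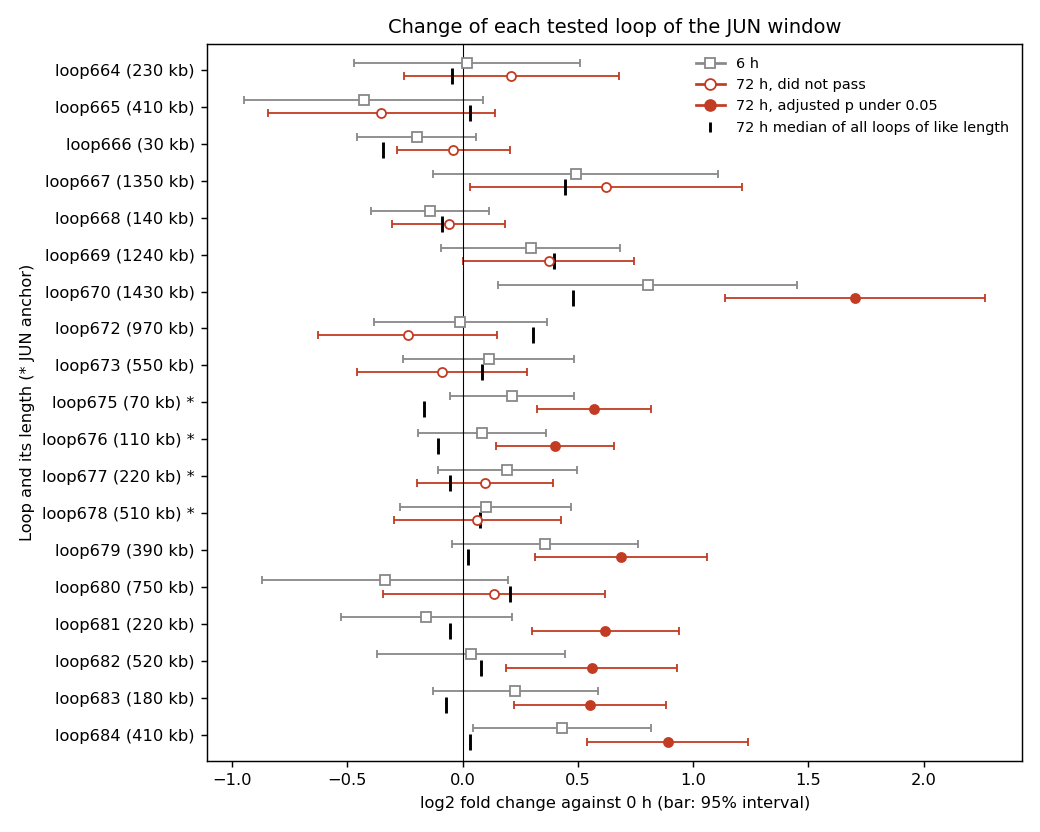
Log2 fold change against 0 h of the 19 tested loops, at 6 h (grey squares) and 72 h (red circles, filled where the adjusted p was under 0.05), with 95% intervals of 1.96 SE. Black ticks are the median 72 h change of all loops of like length. The filled circles lie between 0.40 (loop676) and 1.70 (loop670), and no grey square is filled.

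Between 6 h and 72 h, 5 loops rose and none fell (26.3% of 19, where 20.5% of all tested loops passed, 10.7% upwards and 9.81% downwards). They were loop681 (log2 0.78, SE 0.17, edgeR adjusted p = 0.000391), loop670 (0.90, SE 0.27, adjusted p = 0.00925), loop675 (0.36, adjusted p = 0.0311), loop682 (0.52, adjusted p = 0.0417) and loop684 (0.46, adjusted p = 0.0438). loop681 also passed with DESeq2, where the other 4 did not, and kept its call with each single library left out. loop675 lost its call without replicate 1, 2 or 3 of 6 h or replicate 1 or 3 of 72 h (adjusted p 0.0599 to 0.134), and loop670 without replicate 2 of 6 h (adjusted p = 0.0961) or replicate 4 of 72 h (adjusted p = 0.0579). With the length correction the change of loop670 was 0.61 and its call was lost (adjusted p = 0.0944). With replicates 3 and 4 summed at each time, as they are counted here, loop682 (adjusted p = 0.0531) and loop684 (adjusted p = 0.0657) did not pass. loop682 lost it without replicate 1, 3 or 4 of 6 h or replicate 2 or 3 of 72 h (adjusted p 0.0608 to 0.169), and loop684 without replicate 1, 3 or 4 of 6 h or replicate 3 or 4 of 72 h (adjusted p 0.0746 to 0.175). Over the 3 times together 8 loops passed, against 36.9% of all tested loops. They were the loops that passed at 72 h against 0 h.

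In the authors' deposited table, 1 of the 22 loops is classed as gained, loop684, and 21 as static. Its adjusted p is the same in the columns of both times, so it belongs to 1 test over the times and not to the 72 h change. The authors' deposited table gives loop684 a log2 change of 0.83 at 72 h and an adjusted p over the times of 0.0151. For loop675 the authors' deposited table has a log2 change of 0.53 at 72 h and an adjusted p over the times of 0.0202, and for loop681 0.56 and 0.0169, with both classed as static. The authors' deposited table gives no log2 change for loop670. How the deposited log2 values and classes were set is not given in the sources used here.

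At the other AP-1 genes the loops that passed against 0 h were lower, at JUND and FOSB. Of 12 AP-1 genes, JUN included, 8 had a gene end in an anchor, in 13 loops that were all tested, 4 of them at JUN. At 72 h 2 rose, both at JUN, and 2 fell, both at JUND (30.8% of 13 passed, where 33.6% of all tested loops did). The median log2 change of the 13, 0.06, is that of loop678 at JUN and does not describe the other genes. JUND encodes a JUN relative that is present before stimulation in many cells. loop30780 at JUND went from 124 ± 21.8 normalised contacts at 0 h (SD, n = 3) to 87.6 ± 11.2 at 6 h and 66.8 ± 8.19 at 72 h (log2 -0.86, SE 0.12, edgeR adjusted p = 1.12e-09). loop30781, a 40 kb loop at JUND, changed by -0.46 (edgeR adjusted p = 6.35e-05). The loops at JUND and FOSB, of 40 to 130 kb, were not set beside loops of like length. Short loops tended to fall, with a median 72 h change of -0.35 at the length of loop666 (30 kb) and -0.09 at that of loop668 (140 kb). With the length correction 2 of the 13 fell and 3 rose at 72 h. At 6 h 2 of the 13 fell and none rose (15.4%, where 6.41% of all tested loops passed), namely loop30780 (-0.50, adjusted p = 0.00251) and loop31022 at FOSB (-0.44, adjusted p = 0.00386), which encodes a FOS relative. loop31022 had 180 ± 31.3 at 0 h, 126 ± 32.6 at 6 h and 162 ± 19.4 at 72 h. The 6 h count was 1 without replicate 1 of 0 h or replicate 2 of 6 h and 4 without replicate 2 of 0 h. The FOS loop (loop27094) changed by -0.05 at 72 h (adjusted p = 0.807), and the loops at FOSL2, ATF3, BATF and BATF2 did not pass against 0 h at either time. The BATF loop (loop27093) changed by 0.33 at 6 h and -0.30 at 72 h. Between 6 h and 72 h 2 of the 13 rose and 2 fell (30.8%, where 20.5% of all tested loops passed). Over the 3 times 7 passed (53.8%, against 36.9% of all tested loops).

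The loops outside the locus whose levels followed loop675 most closely over the 12 libraries lay on chromosomes 11 and 7. Among 24113 tested loops outside the locus, the highest Pearson r was 0.96 for a loop on chromosome 11 between chr11:13210001-13220000 and chr11:13330001-13340000, the latter within BMAL1. Next came loops on chromosome 7 from AOAH to ELMO1 (0.958) and within ELMO1 (0.943). The libraries share their times and depth, so these values are a description. Within the locus loop679 was the most alike (0.864), followed by loop670 (0.759) and loop684 (0.667), while loop676, from the same JUN anchor, had 0.352 and loop678 -0.04.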

How the data were processed

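In situ Hi-C contacts were measured in 42 samples, 14 at each time, and the deposited file, per the file headers, lists 33914 loops and the raw counts of their contacts, with the technical replicates in 30 columns. The submitters' processing notes name hg38, Juicer 1.5.6 and DESeq2, with no role. The authors also deposited a class for each loop and, for some of the loops, log2 fold changes and an adjusted p-value of 1 test over the times. Anchor starts, counted from 0 in the deposited table, are given from 1.

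Technical replicates were summed into 12 libraries. A filter on low counts (filterByExpr, minimum count 10 and minimum total 15) left 24132 loops. One model without covariates was fitted to all libraries in edgeR 4.0.16 (R 4.3.3), with TMM scaling, a prior count of 2 and the quasi-likelihood test, adjusted over all tested loops by Benjamini-Hochberg at a threshold of 0.05. Dividing a log2 fold change by the square root of F gave its SE, and 95% intervals are 1.96 SE. Tested on simulated counts for 72 h against 0 h, with 24132 loops, the fit called 88% of 100 loops changed by 2-fold and 50% of 100 changed by 1.5-fold, with 6 false calls. Far fewer loops were changed there than in the data, where 33.6% of tested loops passed at 72 h. These rates therefore need not hold for the data. Alternatives were DESeq2 1.42.0, other scaling and filters, a length correction (loess, span 0.3), the replicate number as a block, a term for sequencing design (which sets replicates 3 and 4 apart from 1 and 2), fits within each of these pairs, and leaving out each library.

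The locus, the lists and the tests were chosen with earlier results of these data known. Values per library are given for loops with an end of JUN in an anchor, other loops past the threshold in any comparison, and the tested loop with the highest mean count. A gene is at an anchor when one of its ends lies in it. The likeness of loops was searched for loop675 only. Deviations of libraries of the same number correlated weakly but always positively (0.0146 to 0.124). Most were under 0.1, and the labels do not say that a number marks a shared culture. The numbers were therefore not taken as pairs in the main fit. Gene positions and promoter sequences are from RefSeq (GRCh38.p14); no genome sequence was used here.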

Additional observations from a re-analysis of the deposited data

How the results depend on the processing

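At 6 h against 0 h no loop of the locus passed under any alternative run. At 72 h against 0 h the count of 8 became 5 with DESeq2 (with or without independent filtering), 2 within replicates 3 and 4, 4 with a fold change of at least 1.5 and 4 with both anchors in the window, and 6 to 8 with single libraries left out. At 72 h against 6 h the count of 5 became 1 with DESeq2 (both ways), 2 with no filter on low counts, 1 within replicates 1 and 2, 1 within replicates 3 and 4, 3 after summing replicates 3 and 4 of every time (chosen after the data were seen), 2 at an adjusted p under 0.01, 2 with the 1.5-fold minimum, 2 with both anchors in the window, and 2 to 5 with single libraries left out. Over the 3 times the count of 8 became 4 with DESeq2 (both ways), 4 within replicates 1 and 2, 2 within replicates 3 and 4, 5 at an adjusted p under 0.01, 4 with the 1.5-fold minimum, 4 with both anchors in the window, and 6 to 9 with single libraries left out. For the AP-1 list at 6 h the count of 2 became 1 with DESeq2 (both ways), 1 with the length correction, 0 within replicates 3 and 4, 0 with the 1.5-fold minimum and 1 to 4 with single libraries left out, and at 72 h the count of 4 became 2 within replicates 3 and 4, 1 with the 1.5-fold minimum and 7 with gene ends within 10 kb. Within-pair fits use fewer libraries, and the 1.5-fold and both-anchor settings count fewer loops by construction; for the others the cause was not tested. Over all tested loops DESeq2 called 4977 at 72 h where edgeR called 8105, and 479 at 6 h where edgeR called 1546. The replicate block gave 8 loops of the locus at 72 h and 5 between 6 h and 72 h, the counts without it, and 10 of 12 libraries correlated best with a library of their own number, a hint from the data and not the design. Over all tested loops the block called 8560 at 72 h against 0 h, more than the 8105 without it. No change of a named loop that passed reversed. A test between replicate pairs 1 and 2 and 3 and 4 found no loop of the locus whose change differed (smallest adjusted p 0.843 at 72 h and 0.863 at 6 h). With 2 libraries of a pair at each time it could miss such differences. At 6 h 1 of 19 loops had an unadjusted p under 0.05 in this test, loop682 (p = 0.00662), and at 72 h none did. The 6 h change of loop682 was 0.53 within replicates 1 and 2 and -0.59 within replicates 3 and 4. Depth limits loop670, which had 2 to 8 raw contacts at 0 h.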
